A study of Rattus norvegicus with 9 samples.

Results

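The aminoacyl-tRNA synthetases are the enzymes that join each amino acid to its transfer RNA, and cytosol and mitochondria mostly use separate sets encoded by separate nuclear genes. They were followed here by transcript level in rat dendritic cells. The members were the rows of the deposited expression table whose symbol was on a list of 36 synthetase names, and 31 were found, 16 cytosolic (symbols ending in 1, with Farsa, Farsb and Tars3) and 15 mitochondrial (symbols ending in 2), among 20442 genes. Cars1, Eprs1, Gars1 and Kars1 stand in the table under their older symbols Cars, Eprs, Gars and Kars, were matched by gene ID and are given beside the 16. Mars2 was not analysed here.

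The 9 libraries came from primary bone marrow-derived dendritic cells of wild-type genotype, grown with 10% serum and with GM-CSF and IL-4 at 20 ng/mL each. Control cultures (n = 3) had no treatment, LPS cultures (n = 3) had lipopolysaccharide, the bacterial endotoxin sensed by Tlr4, and LPS+EVs cultures (n = 3) had LPS with extracellular vesicles derived from ASCs. One protocol, written alike for every sample, gives LPS at 1 µg/mL, 50 ng/mL of an agent without a name, and 24 h. Whether that agent was the vesicles or a second addition to the LPS cultures is not stated, so in any difference from Control this agent and LPS cannot be told apart. The replicates carry the word biological but no animal or pool, so p-values measure the spread between these cultures, which may be technical.

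A synthetase first activates its amino acid with ATP and then loads it onto the matching transfer RNA. Several cytosolic enzymes are bound together in a multi-synthetase complex held by the scaffold proteins Aimp1, Aimp2 and Eef1e1. Kars1 and Gars1 each encode both the cytosolic and the mitochondrial enzyme, whereas mitochondria charge glutamine by an indirect route in which Ears2 loads glutamate and an amidotransferase converts it. When an amino acid runs short, uncharged transfer RNA activates the kinase Gcn2 (Eif2ak4), and the transcription factor Atf4 that follows is known to bind amino acid response elements near several cytosolic synthetase genes, while Wars1 is a known interferon-induced gene.

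The promoters are shown first, with the count of each motif searched given for both compartments; whether the counts differ was not tested. RefSeq windows of 250 bases before to 50 bases after the transcript start (build GRCr8) were matched for 15 of the 16 cytosolic and all 15 mitochondrial members, and for 3 of the 4 genes under older symbols. The core of the amino acid response element, TGATGNAA, searched on both strands, lay in 6 of 15 cytosolic windows (Aars1, Iars1, Mars1, Nars1, Tars1 and Yars1), in that of Cars, and in 0 of 15 mitochondrial windows. It lay in 3.98% of all 33469 promoter windows. In 5 of these genes a match lies before the start, and the 40 bases around it are given 5′ to 3′ along the gene, with the 8 bases of the match in capitals as they read on the gene's strand and positions counted from the transcript start.
Aars1, chr19:55908354-55908393, plus strand, first base at -128: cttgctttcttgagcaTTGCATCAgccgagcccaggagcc
Iars1, chr17:15193653-15193692, minus strand, first base at -40: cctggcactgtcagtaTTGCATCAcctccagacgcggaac
Mars1, chr7:65023747-65023786, minus strand, first base at -33: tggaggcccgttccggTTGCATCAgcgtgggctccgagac
Nars1, chr18:60275773-60275812, minus strand, first base at -30: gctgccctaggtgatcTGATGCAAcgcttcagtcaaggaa
Tars1, chr2:62114806-62114845, minus strand, first base at -43: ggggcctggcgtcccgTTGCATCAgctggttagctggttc
Of the 6 matched cytosolic members with this motif 5 fell with LPS (all but Aars1), and of the 9 without it 7 fell. Over all 11141 genes tested, 28.7% were called lower with LPS. Whether these shares differ was not tested. In Nars1 the capitals spell the motif itself, and in the other 4 genes they are its reverse complement. Read on the strand that spells the motif, the 5 matches shown have the same letter, C, at the free position.

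The E-box CACGTG lay in 5 of 15 cytosolic windows (Aars1, Farsb, Iars1, Tars1 and Vars1), in 1 of 15 mitochondrial windows (Ears2) and in 6.42% of all windows. Gamma-activated sites, which STAT factors bind, were searched on both strands as TTCNNNGAA (3 of 15 cytosolic, 2 of 15 mitochondrial, 8.87% of all windows) and as the same letters 1 base farther apart (2 of 15, 1 of 15 and 7.28%). The interferon-stimulated response element core, GAAA repeated after 2 bases of any kind, lay in 0 of 15 and 0 of 15 windows and in 3.92% of all windows. A match is a run of letters in this window and not a measured binding site.

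Libraries held 32148519 to 39407116 reads assigned to genes, recovered from the steps of the FPKM values (reads of a gene scaled by its length and by the library's depth). Dendritic cell markers were present (10 of 12 reached 1 FPKM in every library, with Itgax at 29.9 to 52.0 FPKM), but Flt3 stayed at 0.108 FPKM or below. Macrophage and monocyte markers were also present, with 8 of 9 at 1 FPKM in every library and a summed FPKM of 1219 to 1963, but 5 of 9 fell and 2 rose with LPS: Mrc1 had FPKM of 192, 114 and 189.6 in Control and 8.85, 8.70 and 10.2 in LPS (difference on the log2(FPKM + 1) scale -3.98, limma adjusted p = 3.6e-06), and Cd14 321, 301 and 285 in Control and 741, 930.0 and 547 in LPS (1.26, adjusted p = 0.0024). B cell markers summed to 0.185 FPKM or below. Neutrophil and precursor markers summed to 30.9 to 256 FPKM in Control against 1.80 to 6.58 in LPS and 3.97 to 17.3 in LPS+EVs, and 0 of 7 reached 1 FPKM in every library. Erythroid markers summed to 54.0 to 437 FPKM in Control, 4.88 to 9.58 in LPS and 3.67 to 8.79 in LPS+EVs. Stromal markers summed to 148.8 to 389.8 FPKM in Control, 109.5 to 646 in LPS and 150.1 to 814.3 in LPS+EVs, and 5 of 6 reached 1 FPKM in every library. The part of these other cells in the differences from Control below was not tested. In bulk RNA, fewer cells of a type and less RNA per cell cannot be told apart.

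In Control the cytosolic synthetases were the more abundant set per gene length. Kars had the highest mean at 130.4 ± 15.6 FPKM (SD, n = 3), followed by Sars1 at 122 ± 20.6 and Nars1 at 100.6 ± 4.86 (SD, n = 3), and these 3 do not all separate beyond their spread. Apart from Tars3, a second threonyl-tRNA synthetase gene, at 2.85 ± 0.378 FPKM (SD, n = 3), the lowest cytosolic mean was that of Farsb, the beta subunit of the phenylalanyl enzyme, at 23.3 ± 1.67 (SD, n = 3). Iars2 had the highest mitochondrial mean at 22.8 ± 3.54 FPKM (SD, n = 3), within the spread of Farsb. Tars2 (12.7 ± 1.55) and Hars2 (7.77 ± 0.522) came next (SD, n = 3), and Cars2 was lowest at 0.924 ± 0.257 FPKM (SD, n = 3).

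**Figure D1:**
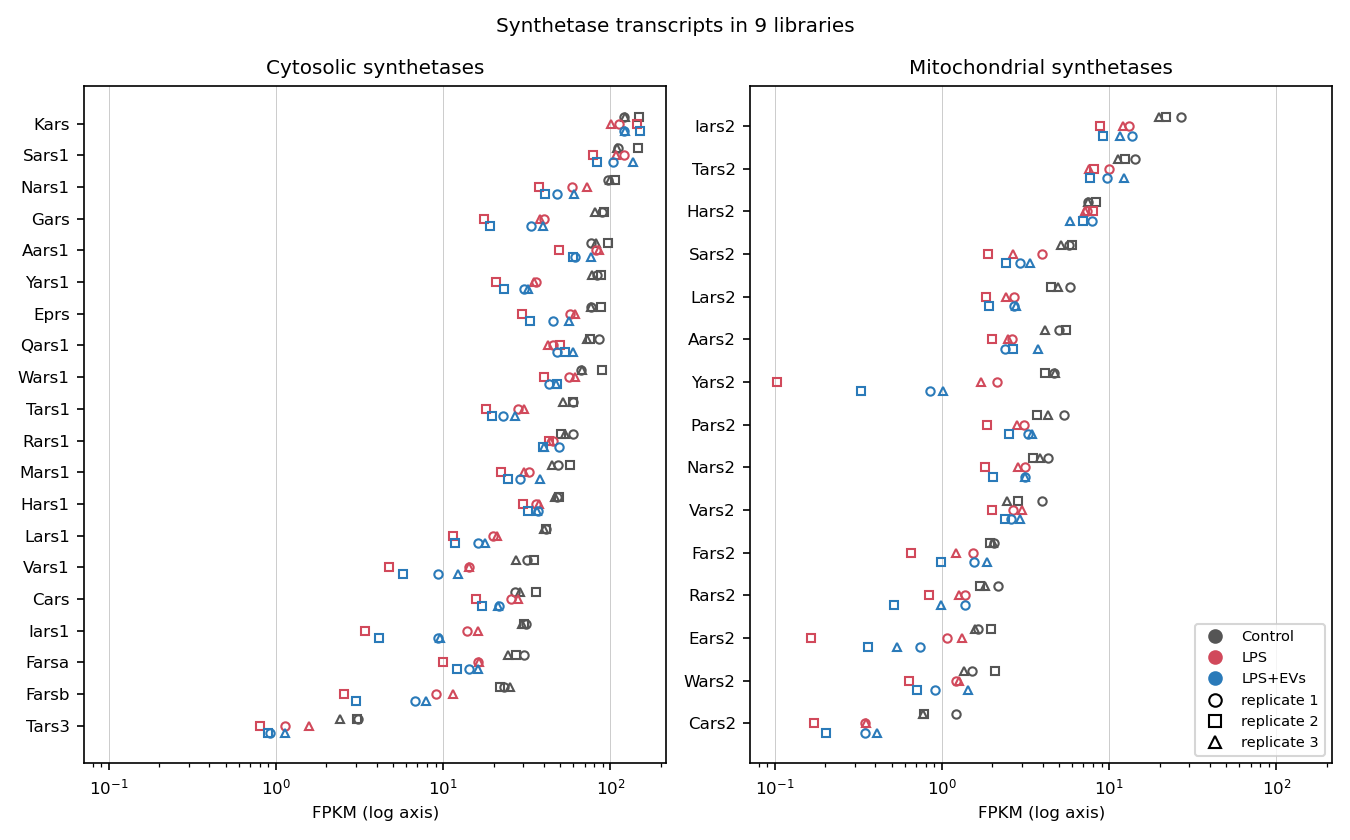
FPKM (log axis) of each synthetase in the 9 libraries, cytosolic on the left and mitochondrial on the right, ordered by the Control mean; colour gives the group and marker shape the replicate number. Most grey Control points lie to the right of the red LPS and blue LPS+EVs points, Kars and Hars2 overlap, and the squares of replicate 2 lie lowest for most members in both treated groups.

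The comparison of LPS with Control asks which synthetase transcripts differ after endotoxin. Both sets were lower in LPS: 12 of 16 cytosolic and 7 of 14 tested mitochondrial members fell, and 0 of either rose (the difference between the shares was not tested). Over all 11141 genes tested, 28.7% were called lower and 12.3% higher. Every one of the 30 tested members had a difference below 0, with a median of -0.86 for the cytosolic and -0.56 for the mitochondrial members on the log2(FPKM + 1) scale, beside -0.19 for all genes tested. Differences given below are on this scale, which understates the change of low genes, and the mitochondrial members are the lower ones: with 0.1 added in place of 1 their median was -0.81. Median-of-ratios scaling moved the median of all genes to 0.00 and left 11 of 16 and 6 of 14 lower, beside 1895 genes (17.0%) higher and 2307 (20.8%) lower of 11115. With the replicate number as a block the counts were 13 of 16 and 11 of 14, where 35.5% of all genes were called lower. Ears2 met the minimum level for testing through Control alone, the group where it was high. Without it, 7 of 13 mitochondrial members fell, 6 of 13 under median-of-ratios scaling and 10 of 13 with the block. The mitochondrial median without Ears2 was -0.52.

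Farsb and Farsa encode the beta and alpha subunits of the same phenylalanyl enzyme. Farsb FPKM was 23.1, 21.8 and 25.1 in Control, 9.06, 2.56 and 11.4 in LPS and 6.76, 3.02 and 7.87 in LPS+EVs. Every treated library lay below every Control library, and replicate 2 was lowest in both treated groups. The difference of LPS from Control was -1.67 (SE 0.46, adjusted p = 0.0197). Farsa FPKM was 30.5, 27.3 and 24.4 in Control, 16.1, 9.94 and 16.5 in LPS and 14.2, 12.1 and 16.1 in LPS+EVs, with the same order of groups, and it fell too, at a difference of -0.93 (SE 0.20, adjusted p = 0.0067); the difference between the subunits was not tested.

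Iars1, the isoleucyl enzyme of the multi-synthetase complex, showed nearly equal Control libraries and a wide spread in LPS. Its FPKM was 31.1, 30.3 and 29.7 in Control, 13.8, 3.43 and 16.2 in LPS and 9.25, 4.16 and 9.51 in LPS+EVs. Control did not overlap either treated group, and the replicate 2 libraries of LPS and LPS+EVs were the lowest. It fell with LPS, at a difference of -1.59 (SE 0.49, adjusted p = 0.0303), a call that ended when any 1 Control library was left out (adjusted p = 0.0725 to 0.081) and with no filter (adjusted p = 0.07). Farsb also lost its call without Control replicate 1 (adjusted p = 0.0565) or Control replicate 3 (adjusted p = 0.0594).

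Vars1, the valyl enzyme, had FPKM of 31.7, 34.98 and 27.2 in Control, 14.3, 4.74 and 14.3 in LPS and 9.32, 5.71 and 12.2 in LPS+EVs. No treated library reached the lowest Control library, and it fell with LPS, at a difference of -1.54 (SE 0.39, adjusted p = 0.0141). Yars1, the tyrosyl enzyme, had FPKM of 82.9, 87.4 and 77.1 in Control, 35.8, 20.7 and 34.8 in LPS and 30.5, 23.1 and 32.0 in LPS+EVs. Its treated libraries all lay below its Control libraries, and its LPS difference had the smallest adjusted p among the members at -1.45 (SE 0.21, adjusted p = 0.0011), with a mean in LPS at 0.369 times that in Control.

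Lars1, the leucyl enzyme and a known leucine sensor upstream of mTORC1, had FPKM of 41.0, 41.0 and 40.0 in Control, 19.8, 11.5 and 21.0 in LPS and 16.2, 11.8 and 17.8 in LPS+EVs. Control libraries lay within about 1 FPKM of each other and well above every treated library, and the LPS difference was -1.22 (SE 0.23, adjusted p = 0.0035). Tars1, the threonyl enzyme, had FPKM of 60.0, 59.4 and 52.2 in Control, 27.9, 17.9 and 30.5 in LPS and 22.8, 19.4 and 26.7 in LPS+EVs. Control did not overlap either treated group, and the LPS difference was -1.17 (SE 0.20, adjusted p = 0.0023). Its paralogue Tars3 was low, with FPKM of 3.10, 3.04 and 2.42 in Control, 1.14, 0.806 and 1.58 in LPS and 0.915, 0.893 and 1.13 in LPS+EVs, and it too fell without overlap with Control, at -0.83 (SE 0.17, adjusted p = 0.0046).

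The other cytosolic members that fell were Nars1 (-0.88, adjusted p = 0.0173), Mars1 (-0.81, adjusted p = 0.012) and Hars1 (-0.47, adjusted p = 0.012), for asparagine, methionine and histidine, and Qars1. Nars1 lost its call without Control replicate 2 (adjusted p = 0.052), and Hars1 lost it under median-of-ratios scaling (adjusted p = 0.0612). Qars1, the glutaminyl enzyme, which has no separate mitochondrial counterpart on the list, had FPKM of 85.1, 76.0 and 72.4 in Control, 45.3, 49.7 and 42.1 in LPS and 48.15, 53.8 and 59.4 in LPS+EVs. Its LPS libraries were all below Control, the replicate 2 library was here the highest of the LPS group, and the difference was -0.76 (SE 0.12, adjusted p = 0.0016).

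Wars1, the tryptophanyl enzyme, had FPKM of 67.1, 89.2 and 67.7 in Control, 56.5, 40.0 and 61.7 in LPS and 42.7, 47.8 and 47.4 in LPS+EVs. Its LPS libraries lay below its Control libraries, but the difference of -0.51 (SE 0.18, adjusted p = 0.0509) did not pass, and without LPS replicate 3 it did (adjusted p = 0.0318). Rars1 (-0.31, adjusted p = 0.0642) passed only with the replicate block (adjusted p = 0.0302). Aars1 (-0.27, adjusted p = 0.339) and Sars1 (-0.26, adjusted p = 0.378) overlapped between groups, and in the libraries numbered 1 and 3 alone their differences were 0.08 and 0.05.

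The 4 genes under older symbols were mixed. Gars, the glycyl enzyme of both compartments, had FPKM of 89.2, 91.0 and 81.0 in Control, 40.2, 17.6 and 38.0 in LPS and 33.4, 18.9 and 39.6 in LPS+EVs. Its Control libraries did not overlap the treated ones, and it fell with LPS, at a difference of -1.50 (SE 0.34, adjusted p = 0.0085). Kars, the lysyl enzyme of both compartments, had FPKM of 119.8, 148 and 123 in Control, 112, 144 and 101.3 in LPS and 120.2, 149 and 122 in LPS+EVs. These groups overlapped, the replicate 2 library was highest in each, and the difference of -0.14 (SE 0.16, adjusted p = 0.518) did not pass and was 0.08 under median-of-ratios scaling. Eprs, which loads glutamate and proline, (-0.75, adjusted p = 0.0626) passed with the block alone (adjusted p = 0.0245), and Cars (-0.41, adjusted p = 0.159) did not pass. With these 4 genes, 13 of 20 cytosolic members fell, or 15 of 20 with the block. Of the 7 enzymes of the multi-synthetase complex 4 fell (6 with the block), and of the 13 cytosolic enzymes outside it 9 fell (9 with the block); whether the shares differ was not tested.

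Among the mitochondrial members Yars2, the tyrosyl enzyme, had the largest difference. Its FPKM was 4.71, 4.12 and 4.76 in Control, 2.13, 0.103 and 1.71 in LPS and 0.847, 0.329 and 1.02 in LPS+EVs. LPS replicate 2 held only 6 reads of it, and all treated libraries lay below Control. The LPS difference was -1.39 (SE 0.36, adjusted p = 0.016), and it was lost without Control replicate 1 (adjusted p = 0.0509) and with 0.1 added (adjusted p = 0.0553).

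Iars2 FPKM, for the isoleucyl enzyme, was 26.7, 21.8 and 19.9 in Control, 13.2, 8.75 and 12.1 in LPS and 13.7, 9.21 and 11.6 in LPS+EVs. Control did not overlap either treated group, and the LPS mean was 0.497 times the Control mean, a difference of -0.96 (SE 0.20, adjusted p = 0.0053). Lars2, the leucyl enzyme, had FPKM of 5.81, 4.497 and 4.93 in Control, 2.71, 1.83 and 2.42 in LPS and 2.71, 1.91 and 2.78 in LPS+EVs. It fell without overlap with Control, at a difference of -0.88 (SE 0.17, adjusted p = 0.0041). Sars2, the seryl enzyme, had FPKM of 5.78, 6.02 and 5.17 in Control, 3.94, 1.88 and 2.67 in LPS and 2.92, 2.41 and 3.36 in LPS+EVs. The treated libraries again all lay below Control, and the LPS difference was -0.83 (SE 0.20, adjusted p = 0.012).

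Aars2, the alanyl enzyme, had FPKM of 5.04, 5.54 and 4.14 in Control, 2.62, 1.99 and 2.48 in LPS and 2.40, 2.66 and 3.78 in LPS+EVs. Its LPS libraries all lay below Control and the difference was -0.81 (SE 0.17, adjusted p = 0.0067). Pars2, the prolyl enzyme, had FPKM of 5.36, 3.70 and 4.31 in Control, 3.10, 1.85 and 2.81 in LPS and 3.27, 2.5 and 3.44 in LPS+EVs. It fell, at a difference of -0.61 (SE 0.19, adjusted p = 0.0316), and lost the call without Control replicate 1 (adjusted p = 0.115), Control replicate 3 (adjusted p = 0.0753) or LPS replicate 2 (adjusted p = 0.0744), with no filter (adjusted p = 0.0723) and with the 6 compared libraries alone (adjusted p = 0.0545). Tars2, the threonyl enzyme, was the least firm call at -0.52 (SE 0.18, adjusted p = 0.0478): it was lost under median-of-ratios scaling (adjusted p = 0.148), with no filter (adjusted p = 0.0807), in the libraries numbered 1 and 3 alone (adjusted p = 0.0754) and when Control replicate 1, 2 or 3 or LPS replicate 2 or 3 was left out (adjusted p = 0.0678 to 0.156). Without Control replicate 1, 4 of 14 mitochondrial members fell. Over the fits with 1 library left out, 2215 to 3174 of the 11141 genes tested were called lower.

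The mitochondrial members that did not pass were Ears2 (-0.62, adjusted p = 0.0789), Fars2 (-0.51, adjusted p = 0.0668), Nars2 (-0.46, adjusted p = 0.0884), Rars2 (-0.42, adjusted p = 0.107), Wars2 (-0.39, adjusted p = 0.152), Vars2 (-0.19, adjusted p = 0.425) and Hars2 (-0.05, adjusted p = 0.808). The first 4 of these passed with the replicate block, at adjusted p = 0.0478, 0.0232, 0.0196 and 0.0294. Of these 4, Ears2 met the minimum level for testing through Control alone. Cars2, the cysteinyl enzyme, was too low to test and had FPKM of 1.22, 0.778 and 0.773 in Control, 0.347, 0.173 and 0.352 in LPS and 0.348, 0.203 and 0.408 in LPS+EVs, with every Control library above every treated one. Hars2, the histidyl enzyme, had FPKM of 7.48, 8.37 and 7.46 in Control, 7.38, 7.96 and 7.16 in LPS and 7.90, 6.98 and 5.81 in LPS+EVs. All 3 groups of Hars2 overlapped, and its difference was 0.15 under median-of-ratios scaling.

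Counted by overlap alone, every LPS library lay below every Control library for 14 of 16 cytosolic and 13 of 15 mitochondrial members, beside 37.6% of all genes tested. The 15 include Cars2, which was not tested, and Ears2, which met the minimum level through Control alone. Without Ears2 the count was 12 of 14. The 2 cytosolic members that overlapped were Aars1 and Sars1, and the 2 mitochondrial ones were Hars2 and Vars2.

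**Figure D2:**
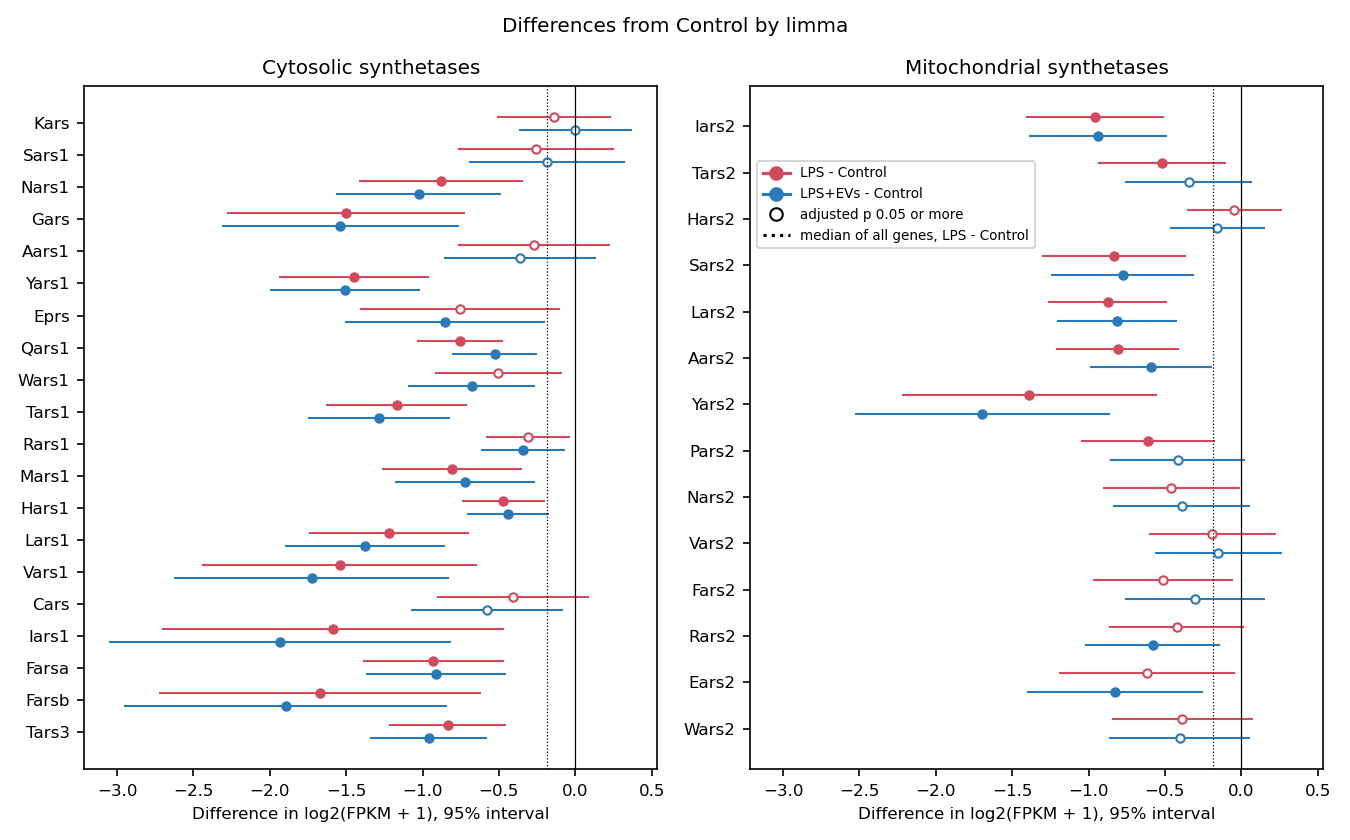
Difference from Control in log2(FPKM + 1) with its 95% interval for 20 cytosolic (left) and 14 mitochondrial (right) synthetases, LPS in red and LPS+EVs in blue, filled where the adjusted p is under 0.05; the dotted line is the median of all genes for LPS. Farsb, Iars1, Vars1, Gars and Yars1 lie farthest left among the cytosolic genes and Yars2 among the mitochondrial ones, and Kars, Sars1 and Hars2 lie near 0.

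The summed FPKM of the sets gives the same picture by library. The 16 cytosolic members summed to 895, 976 and 854 FPKM in Control, 614, 421 and 627 in LPS and 529, 462 and 618 in LPS+EVs. The 15 mitochondrial members summed to 92.1, 81.3 and 75.8 FPKM in Control, 56.3, 38.8 and 50.2 in LPS and 54.0, 40.9 and 55.3 in LPS+EVs. Each treated sum was below each Control sum, and replicate 2 was lowest in both treated groups. The cytosolic sum was 9.71 to 12.01 times the mitochondrial sum in Control, 10.9 to 12.5 times in LPS and 9.80 to 11.3 times in LPS+EVs, so the balance between the compartments overlapped across all 3 groups.

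**Figure D3:**
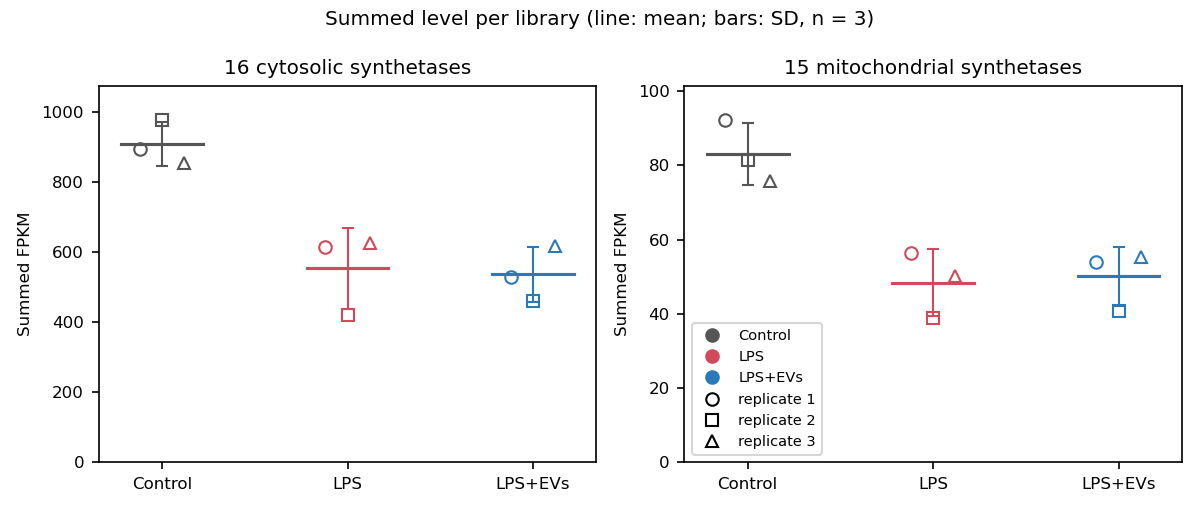
Summed FPKM of the 16 cytosolic (left) and 15 mitochondrial (right) synthetases in each library, with the group mean (line) and SD (bars, n = 3); marker shape gives the replicate number. Control libraries lie above all LPS and LPS+EVs libraries in both panels, and the treated groups overlap each other.

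The libraries numbered 2 stood apart within the treated groups. LPS replicate 2 was the lowest of its group for 15 of 16 cytosolic and 13 of 15 mitochondrial members, and for 54.2% of all genes tested. LPS+EVs replicate 2 was lowest for 14 of 16 and 13 of 15, and for 50.8% of all genes. In Control, replicate 2 was lowest for 2 of 16 and 6 of 15, and for 41.3% of all genes. Dendritic cell markers summed to 7402 FPKM in LPS replicate 2 against 1276 and 2248 in LPS replicates 1 and 3, and replicate 2 also had the highest sum in Control (8371 against 1975 and 3264) and in LPS+EVs (7710 against 1685 and 2183). The antigen presentation gene Cd74 carried most of this sum, at 5855 FPKM in LPS replicate 2 against 939 and 1467. RT1-Da (935 against 39.0 and 82.5), RT1-Ba (261 against 8.72 and 11.5), Irf8 (43.3 against 8.035 and 15.3) and Batf3 (31.7 against 10.05 and 14.1) were also highest in LPS replicate 2, as were Zbtb46 and Ciita. Itgax (36.9 against 37.0 and 42.6), Ccr7 (142 against 147 and 417) and Flt3 were lowest there, and Irf4 and Cd86 lay between the other libraries. The stromal markers summed to 109.5 in LPS replicate 2 against 646 and 334. Replicate 2 also had the lowest stromal sum in Control (148.8 against 309.3 and 389.8) and in LPS+EVs (150.1 against 476.6 and 814.3). The part of these cell markers in the low synthetase values was not tested. In the libraries numbered 1 and 3 alone, 12 of 16 cytosolic and 6 of 14 mitochondrial members still fell with LPS, beside 3211 of 11141 genes.

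The comparison of LPS+EVs with LPS asks what the vesicles add. No synthetase passed limma's test: 0 of 16 cytosolic and 0 of 14 mitochondrial members were called, beside 0.0% of all genes, and the members' medians were -0.10 and 0.05. Over all genes, 295 (2.65%) had an unadjusted limma p under 0.05, and 0 of the 30 tested members did, a count too small to set apart from that share. With the replicate block or with limma-voom on the recovered reads, 0 genes passed. In 0 members did the groups separate without overlap, beside 3.14% of all genes higher and 3.48% lower. The 95% intervals of the members ran from -1.45 to 0.82 for the cytosolic and from -1.13 to 0.66 for the mitochondrial set, so changes of that size remain within the error.

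The cytosolic members nearest to a difference were Qars1 at 0.23 (SE 0.12, unadjusted p = 0.09), Wars1 at -0.17 (unadjusted p = 0.363) and Tars3 at -0.12 (unadjusted p = 0.473), all with adjusted p = 0.999 in limma. Qars1 stood at 45.3, 49.7 and 42.1 FPKM in LPS and at 48.15, 53.8 and 59.4 in LPS+EVs, with an overlap between 48.15 and 49.7. The nearest mitochondrial members were Aars2 at 0.22 (unadjusted p = 0.242), Fars2 at 0.21 (unadjusted p = 0.313) and Pars2 at 0.19 (unadjusted p = 0.337). Fars2, the phenylalanyl enzyme, had FPKM of 1.54, 0.656 and 1.22 in LPS and 1.55, 0.988 and 1.87 in LPS+EVs, and the groups overlapped. Iars1 and Yars2 had the lowest estimates of their sets at -0.34 and -0.31, with SE 0.49 and 0.36.

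LPS+EVs against Control shares its Control libraries with the comparison of LPS against Control, so the 2 are not separate evidence. Here 14 of 16 cytosolic and 7 of 14 mitochondrial members (6 of 13 without Ears2) fell and 0 rose, beside 30.8% of all genes lower and 13.5% higher. The medians were -0.94 and -0.50 (-0.42 without Ears2), beside -0.19 for all genes. Under median-of-ratios scaling 10 of 16 and 5 of 14 fell (4 of 13 without Ears2). With that scaling 2081 genes (18.7%) were higher and 2484 (22.3%) lower of 11115. The 6 of the 16 cytosolic members with the largest differences were Iars1 (-1.93, adjusted p = 0.0127), Farsb (-1.90, adjusted p = 0.0106), Vars1 (-1.73, adjusted p = 0.0079), Yars1 (-1.51, adjusted p = 0.00088), Lars1 (-1.38, adjusted p = 0.0019) and Tars1 (-1.28, adjusted p = 0.0014). Of the enzymes always reported, Tars3 (-0.96, adjusted p = 0.0023), Wars1 (-0.68, adjusted p = 0.0154), Qars1 (-0.53, adjusted p = 0.0079) and Gars (-1.54, adjusted p = 0.007) fell, and Kars was at the Control mean (ratio of mean FPKM 1.0).

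The calls of Wars1, Qars1, Hars1 (-0.44, adjusted p = 0.0145) and Rars1 (-0.34, adjusted p = 0.0436) ended under median-of-ratios scaling, at adjusted p = 0.0549, 0.161, 0.0984 and 0.492. Wars1 also lost its call without Control replicate 2 (adjusted p = 0.0522) or LPS+EVs replicate 1 (adjusted p = 0.0526), and Hars1 without LPS+EVs replicate 2 (adjusted p = 0.0547). Mars1 (-0.72, adjusted p = 0.0175) lost it without Control replicate 2, LPS+EVs replicate 1 or LPS+EVs replicate 2 (adjusted p = 0.053 to 0.0607). Rars1 lost it without any 1 Control library or without LPS+EVs replicate 2 or 3 (adjusted p = 0.0512 to 0.146), with the 6 compared libraries alone (adjusted p = 0.0655) and in the libraries numbered 1 and 3 alone (adjusted p = 0.081). With the older symbols 16 of 20 cytosolic members fell, Eprs among them (-0.85, adjusted p = 0.0387), which lost the call without any 1 Control library or without LPS+EVs replicate 1 or 2 (adjusted p = 0.0801 to 0.123) and with no filter (adjusted p = 0.0801). Cars (-0.58, adjusted p = 0.0565) passed with the block alone (adjusted p = 0.044), which made 17 of 20.

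The mitochondrial members that fell in LPS+EVs were Yars2 (-1.70, adjusted p = 0.0061), Iars2 (-0.94, adjusted p = 0.0055), Ears2 (-0.83, adjusted p = 0.0266), Lars2 (-0.82, adjusted p = 0.0053), Sars2 (-0.78, adjusted p = 0.0148), Aars2 (-0.59, adjusted p = 0.0234) and Rars2 (-0.58, adjusted p = 0.0365). Ears2, the glutamyl enzyme, had FPKM of 1.65, 1.97 and 1.58 in Control, 1.08, 0.166 and 1.31 in LPS and 0.735, 0.362 and 0.536 in LPS+EVs, from 6 to 64 reads per library. It met the minimum level for testing through Control alone, the group where it was high. Its treated libraries all lay below Control, with LPS replicate 2 lowest, and limma-voom on recovered reads did not call it (adjusted p = 0.0798), nor did the fit with 0.1 added (adjusted p = 0.0654). Nars2 and Pars2 passed with the replicate block alone (adjusted p = 0.0346 and 0.0252), which made 9 of 14 (8 of 13 without Ears2), where 37.4% of all genes were called lower. Every LPS+EVs library lay below every Control library for 14 of 16 cytosolic and 11 of 15 mitochondrial members, beside 40.6% of all genes tested. The 15 include Cars2, which was not tested, and without Ears2 the count was 10 of 14.

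Leaving out 1 library left 11 to 13 cytosolic calls in LPS+EVs. Of the mitochondrial calls, 3 of 14 were left without LPS+EVs replicate 2, and 4 of 14 without Control replicate 1 or without Control replicate 2. Over the fits with 1 library left out, 2522 to 3192 of the 11141 genes tested were called lower. Aars2 lost its call without Control replicate 1 or 2 or LPS+EVs replicate 1 or 2 (adjusted p = 0.0707 to 0.0815), and Sars2 without LPS+EVs replicate 2 (adjusted p = 0.052). Ears2 and Rars2 each lost theirs without any 1 Control library or without LPS+EVs replicate 2 or 3 (adjusted p = 0.058 to 0.0805 and 0.0604 to 0.113). Aars2 and Rars2 also lost theirs under median-of-ratios scaling (adjusted p = 0.0661 and 0.0618) and in the libraries numbered 1 and 3 alone (adjusted p = 0.0939 and 0.0529), and with no filter Aars2, Ears2 and Rars2 stood at adjusted p = 0.0549, 0.0511 and 0.0652.

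Pairing the cytosolic and mitochondrial enzyme of the same amino acid shows where the compartments part. In 15 pairs, the log2 ratio of cytosolic to mitochondrial FPKM changed by a median of 0.03 between LPS and Control, from -1.40 to 1.28, so the pairs went in both directions. In 4 pairs the LPS ratios all lay above Control (Aars1/Aars2, Rars1/Rars2, Sars1/Sars2 and Cars/Cars2). In 3 pairs they all lay below (Hars1/Hars2, Tars1/Tars2 and Vars1/Vars2). These are descriptions without a test, and the highest change, 1.28, was that of Cars/Cars2, where Cars2 was too low to test. The valyl pair moved most downward: its log2 ratio was 3.01, 3.62 and 3.48 in Control, 2.42, 1.26 and 2.24 in LPS and 1.86, 1.25 and 2.06 in LPS+EVs. Vars1 fell while Vars2 overlapped between groups. The seryl pair moved the other way, from 4.26, 4.60 and 4.40 in Control to 4.93, 5.40 and 5.34 in LPS and 5.15, 5.11 and 5.35 in LPS+EVs, with Sars2 lower and Sars1 overlapping.

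Iars1 and Iars2 stood closest to parity: their log2 ratio was 0.22, 0.47 and 0.58 in Control, 0.07, -1.35 and 0.43 in LPS and -0.56, -1.15 and -0.28 in LPS+EVs, where the mitochondrial transcript was the more abundant in every library. The histidyl genes Hars1 and Hars2 lie head to head, 97 bases apart in the RefSeq table, and only Hars1 was called. Their log2 ratio was 2.67, 2.56 and 2.64 in Control, 2.29, 1.91 and 2.38 in LPS and 2.22, 2.20 and 2.64 in LPS+EVs, so the LPS libraries lay below Control and 1 LPS+EVs library reached it. Strand use in the counting is not given in the sources used here, so reads from such neighbours could be mixed. Between LPS+EVs and LPS, 0 of 15 pairs separated without overlap. Between LPS+EVs and Control 6 were higher and 5 lower. The 6 higher pairs include Cars/Cars2, Eprs/Ears2 and Yars1/Yars2, whose mitochondrial members were low. Cars2 was too low to test, and Ears2 and Yars2 each had 6 reads in their lowest library.

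**Figure D4:**
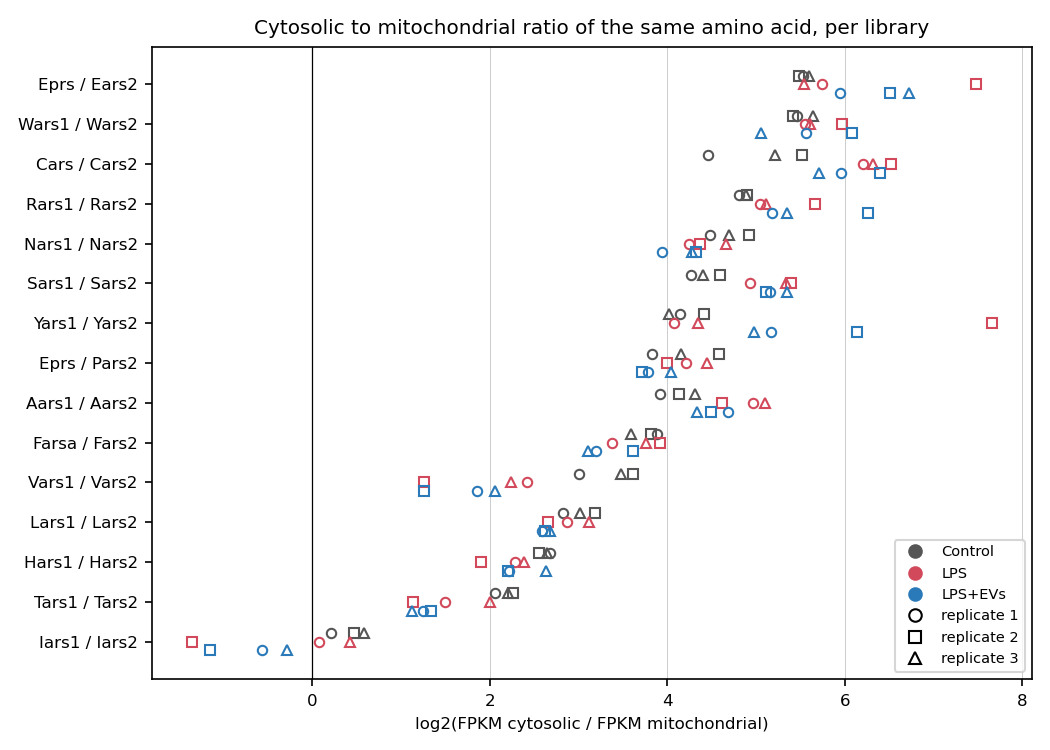
log2 ratio of cytosolic to mitochondrial FPKM for 15 isozyme pairs in the 9 libraries, coloured by group with marker shape for the replicate number. The valyl and threonyl pairs shift left from Control and the seryl and cysteinyl pairs shift right. Cars2 of the cysteinyl pair was too low to test. The isoleucyl pair crosses 0.

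The partners of the synthetases are read against the 28.7% of all genes called lower and 12.3% called higher in LPS (35.5% and 17.2% with the block). Of the scaffold proteins of the multi-synthetase complex 2 of 3 fell, Eef1e1 (-0.75, adjusted p = 0.0237) and Aimp2 (-0.87, adjusted p = 0.0443; 0.0536 under median-of-ratios scaling), and Aimp1 (-0.48, adjusted p = 0.125) passed with the block alone (adjusted p = 0.0372). Of the genes for indirect glutamine charging and initiator formylation in mitochondria 2 of 4 fell, the amidotransferase subunits Gatc (-0.62, adjusted p = 0.0037) and Qrsl1 (-0.79, adjusted p = 0.0043), and the subunit Gatb (-0.48, adjusted p = 0.14) passed with the block alone (adjusted p = 0.0227). Of 6 genes that remove wrongly loaded amino acids or recycle transfer RNA 4 fell: Aarsd1, an alanyl-tRNA editing protein (-1.004, adjusted p = 0.001), Dtd1, a D-aminoacyl-tRNA deacylase (-1.04, adjusted p = 0.019), the peptidyl-tRNA hydrolase Ptrh2 (-1.28, adjusted p = 0.0028) and Ptrhd1 (-0.97, adjusted p = 0.0377).

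Selenocysteine is made on its transfer RNA, and 2 of 4 genes for its charging and delivery fell, Eefsec (-1.03, adjusted p = 0.0177) and Sepsecs (-0.98, adjusted p = 0.0235). Pstk, the kinase of this route, (0.47, adjusted p = 0.149) rose with the block alone (adjusted p = 0.037), and in LPS+EVs against Control it rose (0.67, adjusted p = 0.0477). With no filter or with limma-voom on recovered reads, 0 of these 4 genes rose in LPS+EVs against Control. Of 11 tested genes for mitochondrial tRNA processing and modification 5 fell and 0 rose, beside 28.7% of all genes lower, or 8 with the replicate block (35.5%), where Mto1, Trmu and Trit1 joined (adjusted p = 0.0307, 0.0492 and 0.03). Hsd17b10, a subunit of mitochondrial RNase P, had FPKM of 60.0, 49.4 and 46.2 in Control, 21.6, 19.9 and 23.9 in LPS and 25.9, 20.3 and 21.2 in LPS+EVs, without overlap between Control and the treated groups (-1.21, adjusted p = 0.00036). Elac2, which cuts tRNA 3′ ends, (-1.11, adjusted p = 0.00049), the pseudouridine synthase Pus1 (-1.30, adjusted p = 0.019) and Gtpbp3 (-0.88, adjusted p = 0.0146) fell as well, and the fifth was Trmt10c, another RNase P subunit (-0.68, adjusted p = 0.0448; 0.0698 under median-of-ratios scaling), named after its value was seen. Gatb, Pstk, Mto1, Trmu and Trit1 too were named after their values were seen. The medians of these 5 lists lay between -0.99 and -0.50, beside -0.19 for all genes.

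The amino acid response genes, a list of known Atf4 targets and regulators, went in both directions: 9 of 26 fell and 4 rose, shares near the 28.7% and 12.3% of all genes. The serine synthesis enzyme Phgdh had FPKM of 50.5, 57.0 and 34.0 in Control, 5.59, 2.64 and 3.37 in LPS and 4.59, 2.83 and 8.11 in LPS+EVs, and its Control libraries lay far above all others (-3.32, adjusted p = 0.0002). Psat1 (-2.98, adjusted p = 0.00053), in the same pathway, and Aldh18a1 (-2.03, adjusted p = 0.00087), for proline synthesis, fell too. Ppp1r15a, the phosphatase subunit that reverses eIF2 phosphorylation, rose, with FPKM of 56.1, 85.1 and 58.4 in Control, 171, 202 and 161 in LPS and 176, 219 and 182 in LPS+EVs (1.42, adjusted p = 0.00049). The other genes that rose, named after their values were seen, were Ddit3 (1.03, adjusted p = 0.0087), Ddit4 (1.63, adjusted p = 0.004) and Cebpb (0.68, adjusted p = 0.0402). Of 6 eIF2 kinases and Gcn2 regulators 1 rose, Impact, a known Gcn2 inhibitor (0.65, adjusted p = 0.0224), and 0 fell; with the block Eif2ak2 also rose (adjusted p = 0.0183) and Gcn1 fell (adjusted p = 0.038), both named after their values were seen.

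Interferon response genes, the set to which Wars1 belongs by its known regulation, were led by higher calls: 9 of 18 rose and 1 fell in LPS, beside 12.3% of all genes higher and 28.7% lower, or 14 and 1 with the replicate block, where 17.2% of all genes were called higher; the list median was 1.07. Ifit3 (4.80, adjusted p = 0.00039), Rsad2 (4.56, adjusted p = 0.0009), Irf7 (2.96, adjusted p = 0.0026) and Gbp4 (2.07, adjusted p = 0.00048) had the smallest adjusted p. The gene that fell, named after its value was seen, was the immunoproteasome subunit Psmb10 (-0.84, adjusted p = 0.0135; 0.0887 under median-of-ratios scaling). Wars1 had a difference of -0.51 in the same libraries. In LPS+EVs against LPS, 0 genes of any of these lists passed. In LPS+EVs against Control, 9 of 18 interferon genes rose and 1 fell, beside 13.5% and 30.8% of all genes (13 and 1 with the block, where 17.8% of all genes were called higher). In the same comparison 4 of 26 amino acid response genes rose and 10 fell, near the shares of all genes.

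**Figure D5:**
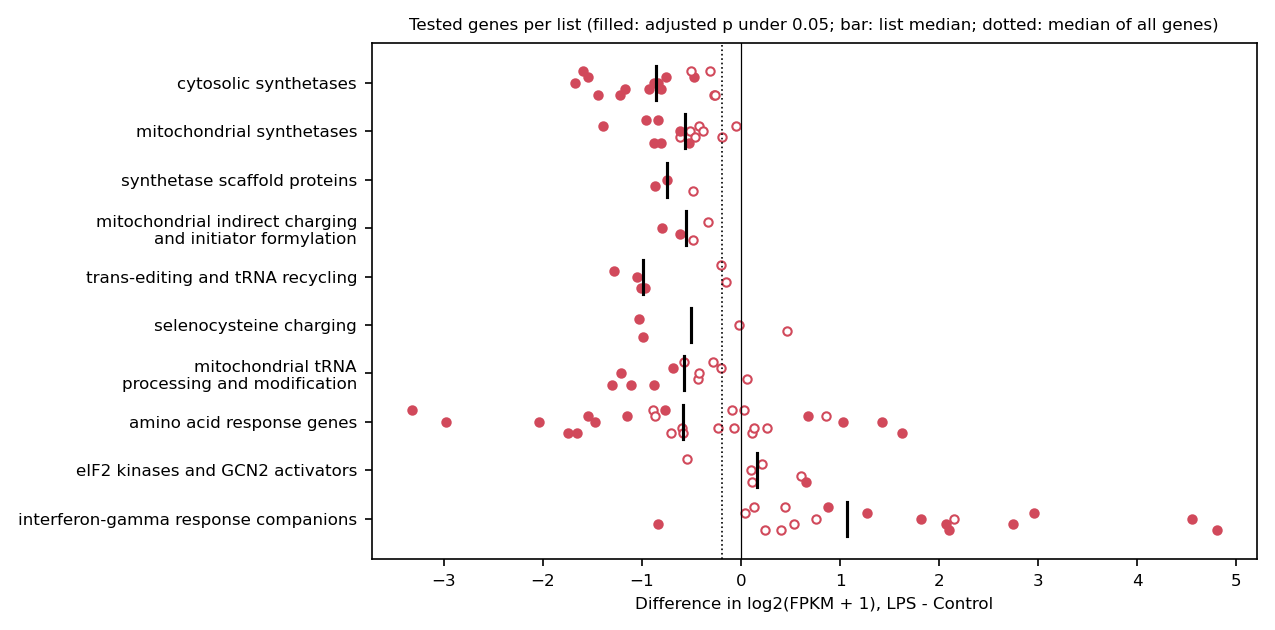
Difference of LPS from Control in log2(FPKM + 1) for each tested gene of the synthetase sets and 8 related lists, filled where the adjusted p is under 0.05, with the list median as a bar and the median of all genes as a dotted line. The synthetase, scaffold, editing and tRNA processing lists lie mostly left of 0, the amino acid response list spans both sides, and the interferon list lies mostly right of 0.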

How the data were processed

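RNA sequencing measured 9 libraries in 3 groups of 3, grouped by the treatment label. The deposited table holds FPKM for 20442 genes; per the submitters' processing notes the authors used fastp, HISAT2, HTSeq and R 3.2.0 with the build mRatBN7.2, and settings and strand of counting are not given in the sources used here. FPKM steps gave back whole reads for 100% of 18833 genes (within 0.002 reads), with totals of 32148519 to 39407116 per library, so counting error is small beside the spread between replicates except for the lowest members. The 11141 genes that reached 1 FPKM in 3 or more libraries were tested by limma-trend (limma 3.58.1, R 4.3.3) on log2(FPKM + 1), with all 9 libraries and 1 mean per group. P-values are two-sided and adjusted by Benjamini-Hochberg over all genes tested, with a threshold of 0.05. Summaries used pandas 2.3.3 and numpy 2.4.6 in Python 3.11.15, figures used matplotlib 3.10.9, and the fit was tested on simulated data.

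The members and all gene lists were chosen with earlier results of these data known. Values per library are given for the 6 members of each compartment with the largest difference among those that passed. Where fewer than 3 passed, the 3 with the smallest p are given. Values are always given for Kars, Gars, Qars1, Wars1 and Tars3, and for up to 4 genes of each other list. Farsa, Fars2, Hars2, Cars2, Ears2, Hsd17b10, Phgdh, Ppp1r15a, Mrc1, Cd14, Cd74, Ccr7, RT1-Da, RT1-Ba, Irf8 and Batf3 are shown per library by a choice made after their values were seen.

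Libraries with the same replicate number deviated together across groups (r = 0.284 to 0.863 in 9 pairs, against -0.745 to 0.426 in 18 pairs with different numbers). This pairing comes from the data, not the labels, and a fit blocked on the number is printed where it changes a call or moves a count by more than 1.5 times. Other alternatives were median-of-ratios scaling, no filter, 0.1 added, the 6 compared libraries alone and leaving out each library; libraries numbered 1 and 3 alone, limma-voom on recovered reads and adding the older symbols were chosen after seeing the data. Promoter motifs were searched in RefSeq windows (GRCr8).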

Additional observations from a re-analysis of the deposited data

How the results depend on the processing

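No cytosolic or mitochondrial synthetase was called higher than Control under any alternative run. With LPS, leaving out 1 library gave 10 to 13 cytosolic and 4 to 8 mitochondrial members lower, and medians of -1.01 to -0.71 and -0.68 to -0.40. Over all 11141 genes tested, these fits called 2215 to 3174 lower. The replicate block gave 11 mitochondrial members lower (10 of 13 without Ears2). The mitochondrial median was -0.81 with 0.1 added and -0.85 with limma-voom on recovered reads. Over all genes, the replicate block together with median-of-ratios scaling called 2695 higher with LPS and 2821 with LPS+EVs, against 1912 and 1984 with the block alone and 1895 and 2081 with the scaling alone. In LPS+EVs against Control, leaving out 1 library gave 3 to 6 mitochondrial members lower, beside 2522 to 3192 of all 11141 genes tested. The mitochondrial median was -0.71 with 0.1 added and -0.75 with limma-voom. In LPS+EVs against LPS, leaving out 1 library gave 0 to 1 genes called higher over all genes (the 1 without LPS replicate 2), a cytosolic median of -0.33 to 0.05, above 0 without LPS replicate 1 (0.006) and without LPS replicate 3 or LPS+EVs replicate 2 (0.051), and a mitochondrial median of -0.092 to 0.152, below 0 without LPS replicate 2 (-0.092) or LPS+EVs replicate 3 (-0.009); in the libraries numbered 1 and 3 alone the mitochondrial median was -0.02. These medians lie near 0 and no member was called, so their sign carries no call.

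Of the 34 tested synthetases, 4 changed sign in LPS against Control, 23 in LPS+EVs against LPS and 4 in LPS+EVs against Control under some alternative; 0 of these were called. For LPS against Control they were Aars1 (0.077) and Sars1 (0.05) in the libraries numbered 1 and 3 alone, Hars2 under median-of-ratios scaling with or without the replicate block (0.146) and without Control replicate 2 (0.004; range over libraries left out -0.084 to 0.004), and Kars under that scaling with or without the block (0.076). For LPS+EVs against LPS they included Tars3 without LPS replicate 3 (0.007; range -0.25 to 0.007) and Gars without LPS replicate 1 (0.168), LPS replicate 3 (0.128) or LPS+EVs replicate 2 (0.266; range -0.404 to 0.266). For LPS+EVs against Control they were Hars2 (0.042) and Vars2 (0.015) under median-of-ratios scaling with or without the block, Sars1 under the same (0.038) and in the libraries numbered 1 and 3 alone (0.117), and Kars under median-of-ratios scaling with or without the block (0.226), without Control replicate 2 (0.095), LPS+EVs replicate 1 (0.055) or LPS+EVs replicate 3 (0.045), with a range of -0.1 to 0.095. The causes of these changes were not tested. The block changed no call of a synthetase other than those given beside their genes. Depth limits mainly Yars2 and Ears2, with 6 reads in their lowest library, and Cars2.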
